A study of Mus musculus with 12 samples.

Results

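The genes described here belong to the p53 pathway: Trp53, which encodes p53 itself, and 9 of its target genes (Eda2r, Cdkn1a, Mdm2, Ccng1, Trp53inp1, Bax, Sesn2, Zmat3 and Phlda3). They were listed by name, and a gene was taken as measured when an array row was annotated to it alone. By that rule 7 of the 10 genes were measured, out of 19937 genes in the whole series, each by 1 row: Eda2r, Mdm2, Ccng1, Trp53inp1, Sesn2, Zmat3 and Phlda3. Cdkn1a, the gene of the cell cycle inhibitor p21, shared its only annotated row with a second gene, so no value is given for it. Trp53 and Bax had no row in the annotation used here and were not analysed, so the level of p53 transcript itself is not part of these results.

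p53 is a transcription factor that is kept low in unstressed cells because MDM2, a ubiquitin ligase, binds it and marks it for degradation. When DNA damage or other stress blocks that binding, p53 accumulates and switches on genes of cell cycle arrest, DNA repair, cell death and metabolism, MDM2 among them, which closes a feedback loop. In the liver the pathway is known for restraining division of hepatocytes with damaged or surplus chromosomes.

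The data are 12 Affymetrix MoGene 1.0 ST arrays of amplified total RNA from C57Bl6 mouse liver material, with 3 libraries in each of 4 groups. The first group, called hepatocyte by its label, holds FACS-sorted, YFP-positive cells from livers of mice without induction. The second holds wild-type organoids, liver cells grown in culture for 2 weeks as the labels describe for all organoids. The Yap-off organoids (minus doxycycline) came from livers in which Yap had been on for 3 weeks, and had Yap off during the 2 weeks of culture. The Yap-on organoids (plus doxycycline) had the same 3 weeks in the liver and kept Yap on during the 2 weeks of culture. Yap is a transcriptional coactivator held back by the Hippo pathway. The sources used here do not give the promoter or cell type that drove the transgene, the animals' age or sex, or whether animals were pooled. Nor do they say that replicates came from separate animals, so that the p-values reflect library-to-library spread, possibly of technical origin.

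Neither the hepatocyte label nor the wild-type organoid label held libraries that were alike, which bears on every comparison with them. A list of 10 macrophage markers summed to between 13271.6 and 25422.6 (linear intensity) in the libraries labelled hepatocyte 2, wild-type organoid 1 and wild-type organoid 3, and to between 436.4 and 588.8 in those labelled hepatocyte 1, hepatocyte 3 and wild-type organoid 2. The sum was 689.8 to 832.3 in the Yap-off and 944.3 to 1138.6 in the Yap-on organoids. In both Yap groups Cd14 made up most of it (mean log2 intensity 9.09 with Yap off and 9.74 with Yap on). Cd68 also had a higher mean with Yap on. The other listed macrophage markers had a lower one, such as Lyz2 (5.62 with Yap off and 2.91 with Yap on). Sums of 8 biliary and ductal markers ran opposite to the macrophage sums in the control libraries. They were 142.9 to 169.7 in hepatocyte 2 and wild-type organoid 1 and 3. In hepatocyte 1, hepatocyte 3 and wild-type organoid 2 they were 2151.2 to 2498.6. The Yap-off organoids had 793.6 to 1284.8 and the Yap-on organoids 9918.4 to 11599.2. Krt19, Krt7 and Sox9 made up most of the split between the control libraries. Epcam, Cldn4, Prom1 and Muc1 were at 3.04 to 4.95 (log2) in all of the control libraries. Of these, Cldn4 and Muc1 overlapped between the 2 sets. Sums of 10 hepatocyte markers were 29985.5 to 36618.9 in the Yap-off and 2898.4 to 3168.2 in the Yap-on organoids. They were 13023.1 to 21184.9 under the hepatocyte label and 15371.6 to 20221.6 under the wild-type organoid label. The sum was thus highest in a group not labelled hepatocyte. Cyp2e1 did not follow it, being at 9.90 to 10.14 in hepatocyte 2 and wild-type organoid 1 and 3. In the Yap-off organoids Cyp2e1 was at 3.89 to 5.58. On this log2 scale no marker is at 0. The labels were kept, and results against these 2 groups are also given without hepatocyte 2 and wild-type organoid 2, the libraries that differ from the rest of their groups (the doubtful libraries). Whether any label is wrong was not tested.

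Promoter sequence is shown first, because these genes are grouped by the binding of 1 factor. The p53 consensus site is a pair of 10-base half-sites. RefSeq promoter windows (GRCm38.p6, 250 bases before to 50 after the start) matched 8 of the 10 genes and 5 of the 7 measured ones. Each window was searched on both strands, the site being its own reverse complement, for the stretch closest to the consensus with at most 1 base between the half-sites. The best stretch is printed in capitals, 5′ to 3′ on the gene's strand, with 20 bases on either side.
Ccng1 (chr11:40755442-40755501, minus strand): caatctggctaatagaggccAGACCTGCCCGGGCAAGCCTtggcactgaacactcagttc
Mdm2 (chr10:117710905-117710964, minus strand): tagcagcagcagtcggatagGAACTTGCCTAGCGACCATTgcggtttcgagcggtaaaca
Eda2r (chrX:97377391-97377451, minus strand): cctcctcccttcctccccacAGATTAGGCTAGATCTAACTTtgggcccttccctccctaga
Phlda3 (chr1:135766022-135766081, plus strand): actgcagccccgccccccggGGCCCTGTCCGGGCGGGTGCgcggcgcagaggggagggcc

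The Ccng1 stretch, which ends 176 bases before the start, departed from the consensus at 1 of 20 bases, and 0.177% of the 32851 windows in the table held a stretch as close. The Mdm2 window held 1 complete half-site, as did 8.36% of all windows, but its best full stretch departed at 5 bases. Eda2r departed at 4 bases (47.4% of windows were as close) and Phlda3 at 5 (89.9%), as did Sesn2. A match is a description of letters and not a bound site, and these windows leave out introns and more distant sequence. Zmat3 and Trp53inp1 are named only.

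By their labels, Yap-on and Yap-off organoids share their history in the liver and differ in whether Yap stayed on during culture. That difference is the question of the first comparison. Sex-linked transcripts also differed between the groups (values below), which bears on every gene compared here. Eda2r, a receptor of the tumour necrosis factor receptor family that binds a form of ectodysplasin, was the measured p53 gene that rose. Ccng1, Phlda3 and Zmat3 stood higher in all 3 Yap-on than in all 3 Yap-off libraries without passing the test on all 12 arrays. Mdm2, Sesn2 and Trp53inp1 overlapped between the groups. In limma with Benjamini-Hochberg adjustment over 19937 genes, 1 of 7 members was called higher at adjusted p under 0.05 and none lower, against 7.09% of all genes called higher and 4.36% lower. The median log2 difference of the 7 was 0.82, and that of all genes was -0.08. The all-gene median was 0.09 without the 30% of genes with the lowest mean. The groups did not overlap, with Yap-on above, for 4 of the 7 members and for 24.6% of all genes.

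**Figure D1:**
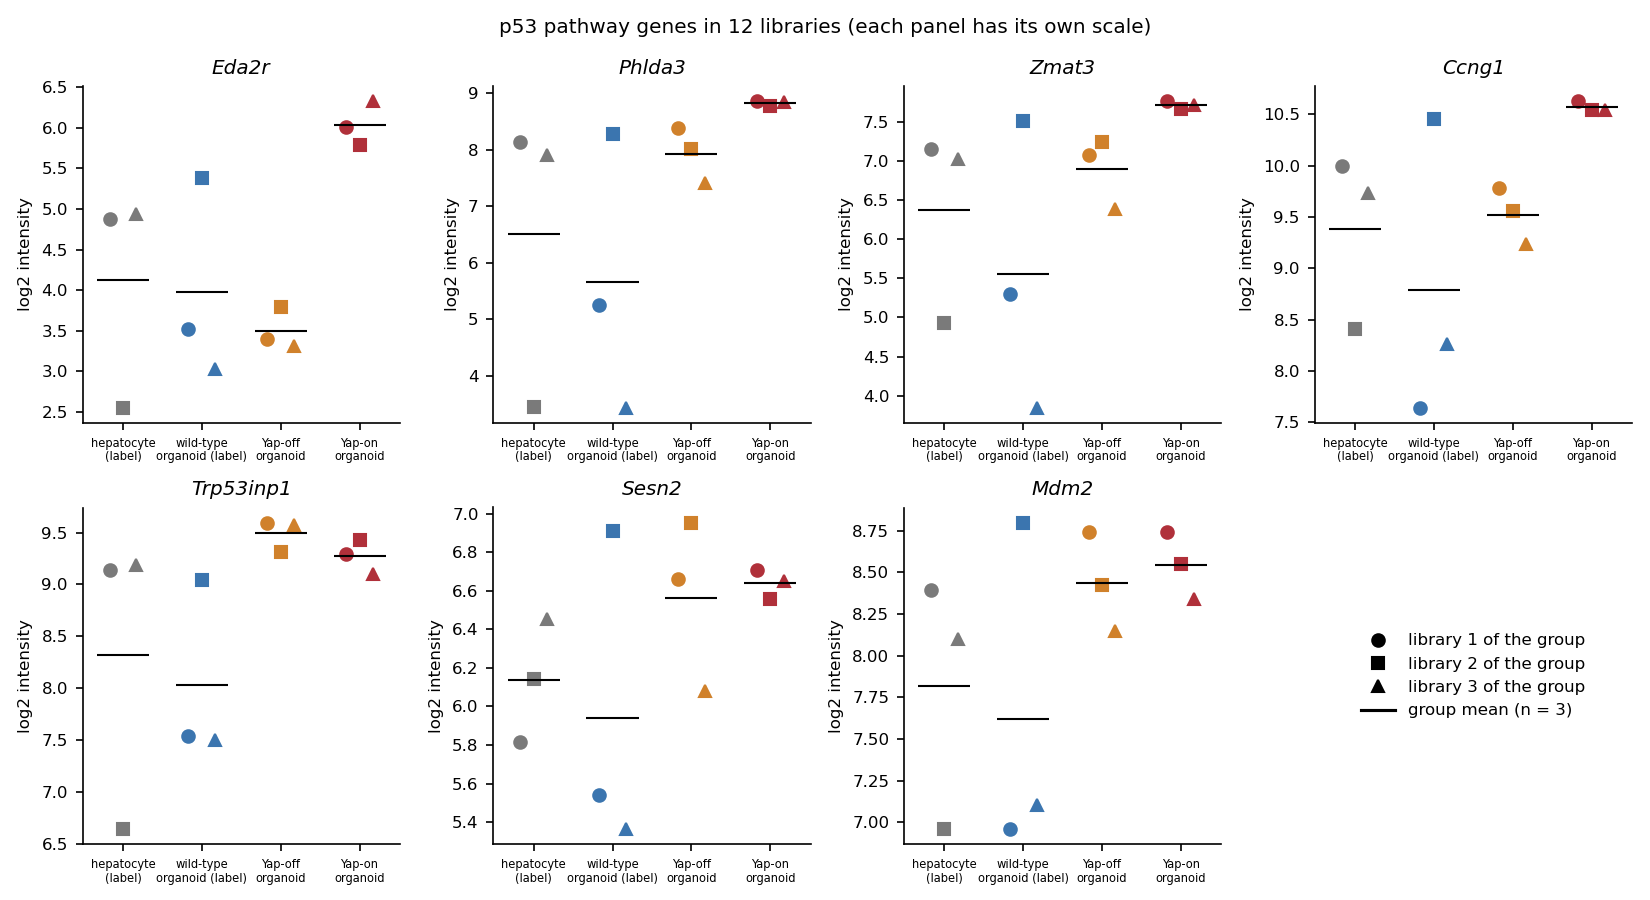
Log2 intensity (vertical axis) of each measured p53 pathway gene in the 12 libraries, by labelled group (horizontal axis). Symbols are libraries 1 to 3 of a group and bars are group means (n = 3). Yap-on libraries lie above all Yap-off libraries for Eda2r, Phlda3, Zmat3 and Ccng1, and both control labels are spread widely.

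Eda2r stood at 6.01, 5.78 and 6.32 (log2 intensity) in the Yap-on libraries 1 to 3 and at 3.39, 3.80 and 3.32 in the Yap-off libraries. The 3 Yap-on values were the highest of all 12 libraries, and the Yap-off values lay below the median gene of their arrays (4.16 to 4.28), so that background may limit the size of the difference. The log2 difference was 2.53 (SE 0.70, 95% interval 0.98 to 4.09, adjusted p = 0.0438), a 5.79-fold higher intensity. With the spread taken from the 6 arrays compared, the SE was 0.19 (adjusted p = 0.000113). The call on 12 arrays was lost when any 1 of the 6 libraries was left out (adjusted p 0.0932 to 0.132, with the log2 difference between 2.39 and 2.68) and under renewed quantile normalization (adjusted p = 0.0654).

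Eda2r lies on the X chromosome, and sex-linked transcripts differed between these organoids. Xist, the RNA of the inactive X chromosome, was at 8.49 to 9.20 in the Yap-off libraries and at 3.14 to 3.20 in the Yap-on libraries, while the Y-linked Eif2s3y was at 2.50 to 2.85 and 7.13 to 7.42. Of 739 measured X-linked genes 5.28% were called higher and 3.65% lower with Yap on, and their median log2 difference was -0.10. For 19105 autosomal genes the shares were 7.16% and 4.40% and the median was -0.08. The part of sex in the Eda2r difference, and in every other difference between these groups, was not tested. Sex-linked expression and Yap status cannot be told apart in these 6 libraries.

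Ccng1, which encodes cyclin G1, a classical p53-induced cyclin, stood at 10.63, 10.54 and 10.54 in the Yap-on and at 9.78, 9.55 and 9.24 in the Yap-off libraries. The groups did not overlap, and the Yap-on mean was 10.57 ± 0.05 (SD, n = 3). The log2 difference of 1.05 (SE 0.64, adjusted p = 0.323) did not pass on 12 arrays, where the SE includes the wide spread of the 2 labelled control groups. On the 6 arrays the SE was 0.15 and Ccng1 rose (adjusted p = 0.00236).

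Phlda3, a small protein that competes with the kinase AKT for membrane lipids, was at 8.86, 8.78 and 8.85 with Yap on and at 8.38, 8.01 and 7.41 with Yap off. Zmat3, a zinc finger protein that binds RNA, was at 7.76, 7.67 and 7.72 and at 7.08, 7.24 and 6.38. In both genes the Yap-on libraries were close together and the third Yap-off library was the lowest of the 6. The log2 difference was 0.90 (SE 1.35, adjusted p = 0.703) for Phlda3. For Zmat3 it was 0.82 (SE 0.84, adjusted p = 0.563). Both rose in the fit on 6 arrays (adjusted p = 0.0270 and 0.0299), in which 4 of 7 members were called higher against 19.1% of all genes. When hepatocyte 2 and wild-type organoid 2 were left out the count was 2, Eda2r and Ccng1 (adjusted p = 1.05e-05 and 0.00264), against 18.9% of all genes, and Phlda3 and Zmat3 did not pass (adjusted p = 0.125 and 0.0983).

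Mdm2, the inhibitor of p53 and itself a target, was at 8.74, 8.55 and 8.34 in the Yap-on and 8.74, 8.42 and 8.15 in the Yap-off libraries. The 2 groups covered nearly the same range. The log2 difference was 0.11 (SE 0.49, adjusted p = 0.915), and on the 6 arrays its 95% interval ran from -0.32 to 0.53. Under renewed quantile normalization the sign turned (-0.035).

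Sesn2 encodes a sestrin, a stress-induced inhibitor of the mTORC1 growth pathway. It was at 6.71, 6.56 and 6.65 with Yap on and at 6.66, 6.95 and 6.08 with Yap off, so that the Yap-on values fell inside the Yap-off range. The log2 difference was 0.08 (SE 0.38, adjusted p = 0.923; 95% interval on the 6 arrays -0.44 to 0.59), and it was -0.17 under renewed quantile normalization.

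Trp53inp1, a stress-induced nuclear protein that acts with p53, was at 9.30, 9.43 and 9.10 with Yap on and at 9.59, 9.32 and 9.57 with Yap off. The ranges overlapped, and Trp53inp1 alone among the 7 had a lower Yap-on mean. The log2 difference was -0.22 (SE 0.64, adjusted p = 0.855), with a 95% interval on the 6 arrays of -0.53 to 0.09. Mdm2, Sesn2 and Trp53inp1 thus had intervals that include 0 in both fits.

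**Figure D2:**
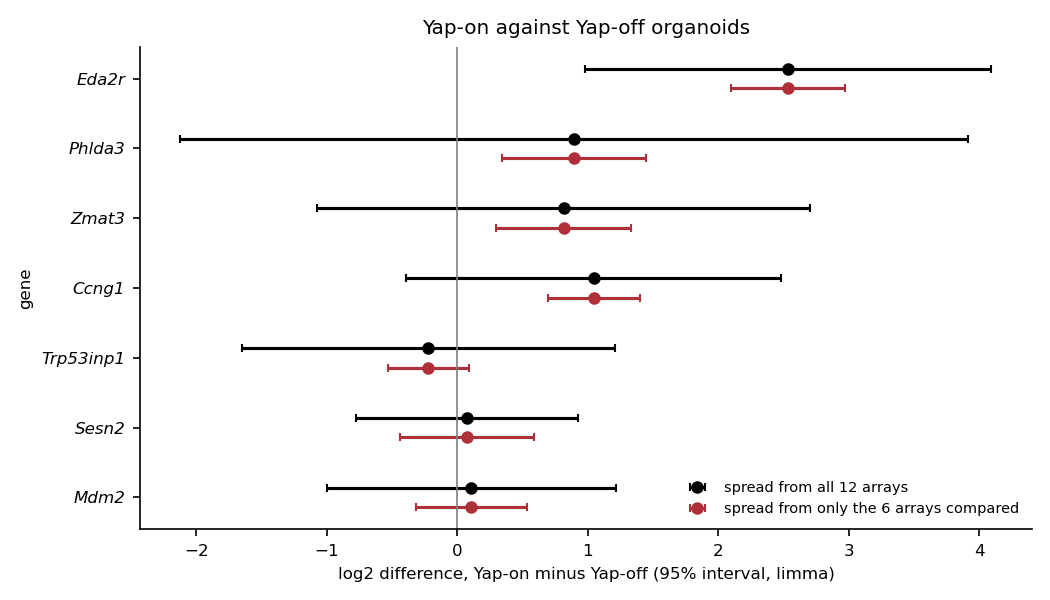
Log2 difference between Yap-on and Yap-off organoids (horizontal axis) for the 7 measured genes (vertical axis), with 95% limma intervals. Black uses the spread of all 12 arrays and red that of the 6 arrays compared. Eda2r excludes 0 in both, while Phlda3, Zmat3 and Ccng1 exclude it with the 6 arrays.

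The wider pathway was described with 4 gene lists. In the list of the p53 family, its damage sensors and its regulators 4 of 20 measured genes rose and none fell, with a median log2 difference of 0.63, where 7.09% of all genes rose and 4.36% fell. Atm, the kinase that signals DNA double-strand breaks to p53, was at 5.01, 5.27 and 5.28 in the Yap-on and at 4.36, 4.07 and 3.99 in the Yap-off libraries, a rise of 1.05 (SE 0.17, adjusted p = 0.00385). Yap-off libraries 2 and 3 lay below the median gene of their arrays (4.22 and 4.28), where background may limit its size. Ppm1d, a phosphatase that opposes the Atm signal and is itself induced by p53, rose by 1.05 (SE 0.23, adjusted p = 0.0153), from a Yap-off mean of 5.45 to a Yap-on mean of 6.50. Trp53bp1, which gathers at DNA breaks, rose by 1.14 (adjusted p = 0.0330), and Ppp1r13b, which encodes the p53-binding protein ASPP1, by 0.97 (adjusted p = 0.0144). Pml, the scaffold of nuclear bodies where p53 is modified, had the largest difference of the list (1.34) and did not pass on 12 arrays (adjusted p = 0.0981). It did on the 6 arrays (adjusted p = 0.000599).

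Among target genes of cell cycle arrest and DNA repair 4 of 18 rose and 1 fell, with a median of 0.58, beside the same 7.09% and 4.36% of all genes. Sfn, the epithelial 14-3-3 sigma protein that holds back entry into mitosis, was at 6.52, 6.64 and 6.30 with Yap on and at 4.06, 3.91 and 4.46 with Yap off. Its rise of 2.35 (SE 0.29, adjusted p = 0.000591) was the largest difference among the called genes of the list, though the Yap-off values lay near the median gene of their arrays, where background may limit its size. It was low in all 6 control libraries too (3.66 to 4.99). Fbxw7, a subunit of a ubiquitin ligase for cyclin E, rose by 1.05 (adjusted p = 0.0290), Rrm2b, the p53-induced ribonucleotide reductase subunit, by 0.82 (adjusted p = 0.0341) and Ddb2, a sensor of ultraviolet damage, by 0.60 (adjusted p = 0.00646). Plk3, a stress-responsive polo-like kinase, fell by 0.81 (adjusted p = 0.0305). Plk2 (1.28) and Polk (1.14) differed by more than Fbxw7 without passing (adjusted p = 0.477 and 0.249).

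Among 20 measured of 22 target genes of cell death and metabolism 1 rose and 1 fell, with a median of 0.41. These counts are near the shares of all genes that rose (7.09%) and fell (4.36%). The 2 genes encode BH3-only proteins, which promote death at the mitochondrion. Pmaip1 (Noxa) was at 6.85, 6.80 and 6.70 with Yap on and at 6.02, 5.69 and 5.03 with Yap off, a rise of 1.20 (SE 0.31, adjusted p = 0.0338). Bbc3 (Puma) was at 4.29, 4.46 and 4.30 against 4.93, 5.08 and 4.71, and fell by 0.56 (SE 0.13, adjusted p = 0.0252). Its Yap-on values lay near the median gene of their arrays (4.17), where background may limit the size of the fall. Tap1 (1.56), Dglucy (1.27) and Steap3 (-0.93) had differences of similar or greater size that did not pass (adjusted p = 0.0773, 0.182 and 0.146).

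Cell cycle genes that p53 lowers through p21 were examined as the other arm of the pathway. None of the 11 measured genes passed in limma on 12 arrays, where 11.5% of all genes did, and 1 of them had an unadjusted p under 0.05, against 27.2% of all genes. All 11 differences were positive, with a median of 0.89, as were 8456 of those of all 19937 genes. Mki67, a proliferation marker, differed by 1.23 (adjusted p = 0.158), Ccnb2, a mitotic cyclin, by 1.19 (adjusted p = 0.274), Top2a by 1.14 (adjusted p = 0.283) and the mitotic kinase Plk1 by 1.12 (adjusted p = 0.256). On the 6 arrays Mki67, Ccnb2 and Plk1 rose. In that fit 7 of the 11 genes had an unadjusted limma p under 0.05, against 44.6% of all genes. Without the doubtful libraries 6 of them did, against 41.6% of all genes. The 4 lists together held 11 called genes on 12 arrays, 9 higher and 2 lower, where 7.09% of all genes were called higher and 4.36% lower. Without 1 of the 6 libraries the count was 3 to 9, being lowest without Yap-on 1 and highest without Yap-off 1. Atm, Sfn and Ddb2 were called in all 6 of these fits, Ppp1r13b in 3, Ppm1d in 2 and the other 6 genes in 1 each. With arrays centred on their median, neither Plk3 (adjusted p = 0.0511) nor Bbc3 (adjusted p = 0.0892) passed. The lists held 33 called genes on the 6 arrays, 26 higher and 7 lower, where 19.1% of all genes were called higher and 12% lower. Markers of hepatocytes and ducts changed between the same groups, as given above, and their part in these counts was not tested. In bulk RNA, fewer cells of a type and less RNA per cell cannot be told apart.

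**Figure D3:**
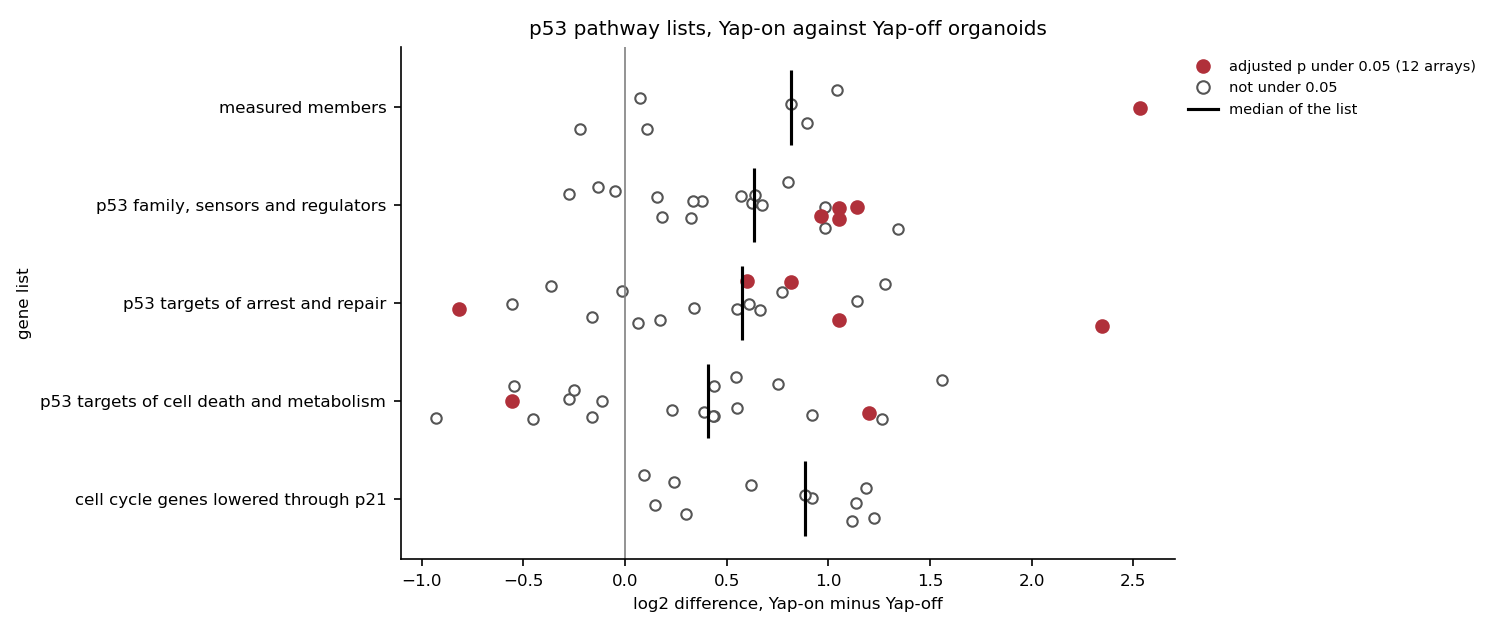
Log2 difference between Yap-on and Yap-off organoids (horizontal axis) for the measured members and for 4 lists of other p53 pathway genes (vertical axis, points spread for clarity). Filled points have adjusted p under 0.05 on 12 arrays and bars are list medians, which are 0.82, 0.63, 0.58, 0.41 and 0.89 from top to bottom.

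The hepatocyte and wild-type organoid labels serve to compare organoids with a Yap history with cells that never had Yap induced. Under the wild-type organoid label all 7 genes had a larger SD than in either Yap group. Under the hepatocyte label 6 of the 7 did. The exception there was Sesn2, with an SD of 0.32 under the hepatocyte label, 0.85 under the wild-type organoid label and 0.44 in the Yap-off group. The same count over all genes is not given here. Phlda3 was at 8.14, 3.44 and 7.92 in hepatocyte libraries 1 to 3, and at 5.26, 8.29 and 3.43 in wild-type organoid libraries 1 to 3, by label. For Zmat3 the values were 7.15, 4.92 and 7.03 and then 5.30, 7.51 and 3.85. In both genes hepatocyte 2 and wild-type organoid 1 and 3, the libraries with high macrophage markers, were the lowest of the 12.

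Ccng1 was at 9.99, 8.41 and 9.73 and at 7.64, 10.46 and 8.27 in the same order of libraries. Mdm2 was at 8.39, 6.96 and 8.10 and at 6.96, 8.80 and 7.11. Trp53inp1 was at 9.14, 6.64 and 9.19 and at 7.54, 9.05 and 7.50. These 3 genes followed Phlda3 and Zmat3, so that the same 3 libraries were the lowest of the 12 for 5 of the 7 members, an order seen in 9.87% of all genes. The part of macrophage or endothelial RNA in these low values was not tested.

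Eda2r and Sesn2 departed from that order. Eda2r was at 4.88, 2.55 and 4.94 under the hepatocyte label and at 3.52, 5.38 and 3.04 under the wild-type organoid label. The Yap-off libraries (3.32 to 3.80) were among the low ones for this gene, below hepatocyte 1, hepatocyte 3 and wild-type organoid 2, whereas for the 5 genes above all Yap-off libraries were above the 3 low ones. Sesn2 was at 5.82, 6.14 and 6.45 and at 5.54, 6.91 and 5.36. It covered 1.59 log2 units over all 12 libraries, the narrowest range of the 7, and Phlda3 covered 5.43, the widest.

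**Figure D4:**
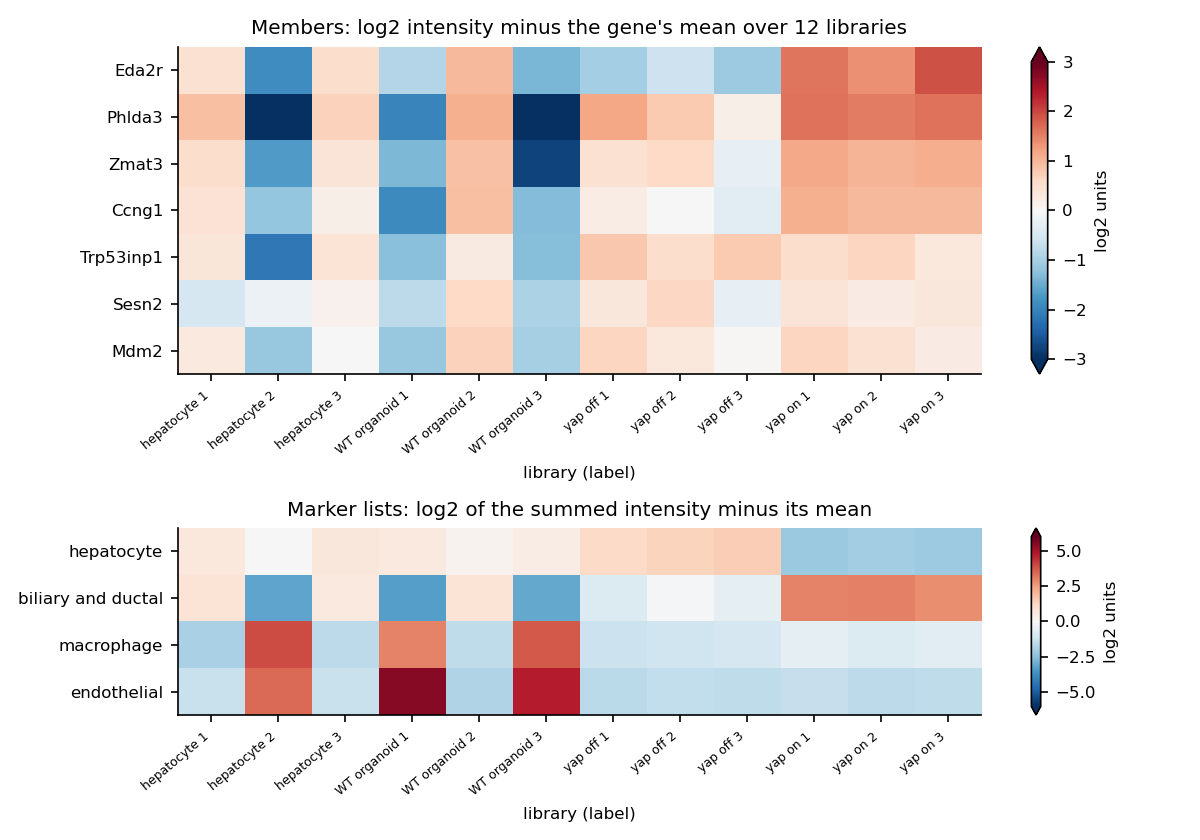
Upper panel, each member's log2 intensity minus its mean over the 12 libraries; lower panel, the log2 of summed marker intensities minus their mean (colour, log2 units; columns are libraries by label). Hepatocyte 2 and wild-type organoid 1 and 3 are low for most members and high for macrophage and endothelial markers.

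Against the libraries labelled wild-type organoid, none of the 7 members was called on 12 arrays in either Yap group by limma. For Yap-on organoids 4.02% of all genes were called higher and 1.45% lower, and an unadjusted p under 0.05 was found for 4 members and for 22.1% of all genes. All 7 differences were positive, from 0.70 (Sesn2) to 3.17 (Phlda3; SE 1.35, adjusted p = 0.208), as were 9367 of those of all 19937 genes. For Yap-off organoids 1.42% of genes were called higher and 1.19% lower, and 1 of 7 members had an unadjusted p under 0.05, as did 19.1% of all genes. Eda2r was the member with a lower Yap-off mean (-0.47, SE 0.70, adjusted p = 0.742), and its sign turned (0.22) without wild-type organoid 2. On the 6 arrays of either comparison no member was called, where 3.51% (Yap on) and 0.306% (Yap off) of all genes were. An unadjusted p under 0.05 was found for 3 and 1 members, and for 18.5% and 13.5% of all genes.

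These counts rest on the library labelled wild-type organoid 2. Without it alone, 6 of 7 members were called higher in the Yap-on and 4 of 7 in the Yap-off organoids, against 18.5% and 11% of all genes. Without it and hepatocyte 2, 7 of 7 members were called higher in the Yap-on and 6 of 7 in the Yap-off organoids, where 24.6% and 18.2% of all genes were called higher. Phlda3 then differed by 4.48 (SE 0.45, adjusted p = 3.41e-05) and 3.59 (SE 0.45, adjusted p = 0.000218). Eda2r differed by 2.76 in the Yap-on organoids (SE 0.21, adjusted p = 5.52e-06) and by 0.22 in the Yap-off organoids (SE 0.21, adjusted p = 0.485). The 2 wild-type libraries that remain are the 2 with high macrophage markers, and the part of those cells was not tested. Every wild-type organoid library had low Xist (3.14 to 3.30), like the Yap-on and unlike the Yap-off libraries (8.49 to 9.20). The part of sex was not tested either.

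Against the libraries labelled hepatocyte, no member was called on 12 arrays either. With Yap on, all 7 differences were positive, as were 8345 of those of all 19937 genes. Of all genes 4.26% were called higher and 1.93% lower. An unadjusted p under 0.05 was found for 1 of the 7 and for 19.6% of all genes. With Yap off, 6 were positive, as were 10495 of all 19937 genes. No member had an unadjusted p under 0.05 (13% of all genes did), and 0.878% of genes were called higher and 1.02% lower. On the 6 arrays no member was called in either comparison, where 8.82% (Yap on) and 0.717% (Yap off) of all genes were. An unadjusted p under 0.05 was found for 3 and 0 members, and for 25.6% and 12.5% of all genes.

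Without the doubtful libraries, Eda2r was called in both comparisons, in opposite directions. It rose by 1.13 (SE 0.21, adjusted p = 0.00436) in the Yap-on organoids and fell by 1.40 (SE 0.21, adjusted p = 0.00249) in the Yap-off organoids, from 4.91 in the 2 libraries labelled hepatocyte that remained. Ccng1 rose with Yap on (0.70, SE 0.21, adjusted p = 0.0399). No other member was called in these 2 comparisons, and the shares of all genes were 12.4% higher for Yap on and 8.78% lower for Yap off. The 2 remaining libraries had high Xist (8.82 in the lower of them) like the Yap-off libraries and unlike the Yap-on libraries. These comparisons share libraries with each other and are given side by side.

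Between the libraries labelled wild-type organoid and hepatocyte no member was called on 12 arrays, with 0.0251% of all genes called in each direction. None had an unadjusted p under 0.05, whereas 8.84% of all genes did. All 7 differences were negative, from -0.84 (Phlda3) to -0.14 (Eda2r), while 8934 of all 19937 genes had a positive one. Without the doubtful libraries 6 of 7 were called lower in the libraries labelled wild-type organoid, where 18.3% of all genes were, and Sesn2 was not (-0.68, SE 0.28, adjusted p = 0.102). The call thus changed wholly with 2 libraries. The libraries that remained, wild-type organoid 1 and 3, had macrophage sums of 13271.6 and 21726.5. In hepatocyte 1 and 3 these sums were 436.4 and 573. Biliary and ductal sums ran the other way (142.9 and 169.7 against 2498.6 and 2151.2). Xist was at most 3.30 in the former 2 libraries and at least 8.82 in the latter 2. The part of cell types and of sex in these calls was not tested.

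Genes with the most similar pattern over the 12 libraries were found as those with the smallest root mean square difference after each gene was centred on its own mean. For Ccng1 they were Anxa3, an annexin (0.17 log2 units), and Pi4k2b (0.23), set against a spread of 0.95 for Ccng1 itself. For Eda2r they were Zfp185 (0.36) and Plcd3 (0.38), against 1.23. Zmat3 came closest to Bcl2l1, the gene of the survival protein BCL-XL (0.30), and Msmo1 (0.32), against 1.22. Mdm2 was nearest to Ddb1 (0.17) and Klhdc2 (0.20), Trp53inp1 to Rhou (0.20) and Npdc1 (0.20), Sesn2 to Tspo (0.17) and 1700123O20Rik (0.19), and Phlda3 to Prrg4 (0.36) and Slc39a4 (0.37). Among pairs of members, Mdm2 and Sesn2 (0.42), Mdm2 and Trp53inp1 (0.42) and Mdm2 and Ccng1 (0.43) lay closest, and Sesn2 and Phlda3 (1.60) farthest. The points share arrays and the mixture of cells in each library.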

How the data were processed

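Values are intensities deposited by the authors for 12 arrays, made with RMA per the submitters' processing notes (background subtraction, quantile normalization, probe summary). They lie on a linear scale, so log2 was taken, with no pseudocount and no filter on low values. The sources used here name no genome build for the array processing. Of 34760 rows, 22961 were in the probe table, 1321 naming several genes were left out, and 954 genes with several rows were represented by their highest-mean row, leaving 19937 genes. Median intensity per array was 13.6 to 15.6, and the number of arrays limits the precision. No 2 arrays were identical.

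Group means over all 12 arrays were fitted in limma 3.58.1 (R 4.3.3; lmFit and eBayes, degrees of freedom 8 residual and 1.76 prior), giving 6 comparisons, with Benjamini-Hochberg adjustment over all genes. All SEs, intervals and p-values are limma's. An exact permutation test of 3 against 3 cannot give a two-sided p below 0.1 and was not used. The fit was tested on simulated data. Members and lists were chosen with earlier results of these data known. All 10 listed genes were to be named, with genes of 4 lists that were called or, up to 4 a list, differed most between Yap-on and Yap-off organoids, 2 genes of most similar pattern per member, Yap1 and the cell type markers. Alternatives were renewed quantile normalization, median centring, the mean of a gene's rows, dropping the lowest 30% of genes by mean, fitting just the 6 arrays of a comparison, robust eBayes with an intensity trend, a replicate block, array weights, and leaving out libraries. Replicate numbers were not taken to pair the samples. Figures were drawn with matplotlib 3.10.9.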

Additional observations from a re-analysis of the deposited data

How the results depend on the processing

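Counts of called p53 members and of called genes of the 4 pathway lists moved with the libraries that set the spread. For Yap-on against Yap-off organoids the members called were 1, with 0 under renewed quantile normalization, 4 on the 6 arrays, 2 with array weights, 0 with the replicate block, 2 without the 2 doubtful libraries and 0 in each fit without 1 library (lowest 0, highest 0). The list genes called were 11, with 6 under renewed quantile normalization, 33 on the 6 arrays, 7 with an intensity trend, 35 with array weights, 6 with the replicate block, 34 without the doubtful libraries and 3 to 9 without 1 library. The lists held 20, 18, 20 and 11 measured genes. Calls over all 19937 genes moved too, from 2283 on 12 arrays to 6212 on the 6 arrays and 5914 without the doubtful libraries. With array weights 4198 of all genes were called higher and 3490 lower. Under renewed quantile normalization these were 1084 and 857, and with the replicate block 1090 and 629. In the other comparisons 0 members were called. With array weights, and again without the doubtful libraries, the counts were 6 for Yap-off and 7 for Yap-on organoids against wild-type organoids, 6 when wild-type organoids were set against hepatocytes, and 1 for Yap-off and 2 for Yap-on organoids against hepatocytes. Without 1 library they ran from 0 to 4 and from 0 to 6 for the Yap-off and Yap-on organoids against wild-type organoids, the 4 and the 6 being without wild-type organoid 2, and were 0 in the other 3 comparisons. Calls over all genes with array weights are not given for these other comparisons. The member counts with array weights there thus have no share of all genes beside them.

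The list genes called for Yap-off against wild-type organoids were 3, with 0 on the 6 arrays, 1 with an intensity trend, 25 with array weights, 0 with the replicate block, 31 without the doubtful libraries and 0 to 22 without 1 library. For Yap-on against wild-type organoids they were 4, with 2 under renewed quantile normalization, 34 with array weights, 38 without the doubtful libraries and 1 to 23 without 1 library. For wild-type organoids against hepatocytes they were 1, with 0 under renewed quantile normalization, on the 6 arrays, with an intensity trend and with the replicate block, 26 with array weights, 33 without the doubtful libraries and 0 to 5 without 1 library. For Yap-off organoids against hepatocytes they were 3, with 1 without the genes of lowest mean, 1 on the 6 arrays, 1 with an intensity trend, 10 with array weights, 0 with the replicate block, 15 without the doubtful libraries and 0 to 2 without 1 library. For Yap-on organoids against hepatocytes they were 4, with 7 on the 6 arrays, 30 with array weights, 23 without the doubtful libraries and 2 to 7 without 1 library. Over all 19937 genes the calls in these comparisons, in the order given, were 520, 1091, 10, 378 and 1234 on 12 arrays. Without the doubtful libraries they were 6449, 8167, 6117, 2792 and 4300. Those with array weights are not given, so the list counts with array weights have no share of all genes beside them. The cause of these moves was not tested, beyond fewer samples where libraries were left out.

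Signs of uncalled members turned in few fits. Between Yap-on and Yap-off organoids Mdm2 (-0.035) and Sesn2 (-0.17) turned under renewed quantile normalization, and without 1 library they ran from -0.038 to 0.26 and from -0.17 to 0.27. Eda2r in Yap-off against wild-type organoids was 0.22 without the doubtful libraries and -0.95 to 0.22 without 1 library. For Yap-off organoids against hepatocytes Ccng1 was -0.29 with array weights and -0.34 without the doubtful libraries (-0.34 to 0.45 without 1 library), Zmat3 -0.13 and -0.19 (-0.19 to 0.92), and Phlda3 -0.10 without the doubtful libraries (-0.10 to 2.25). For wild-type organoids against hepatocytes the ranges without 1 library were -0.93 to 0.33 for Eda2r, -0.78 to 0.13 for Mdm2, -1.14 to 0.14 for Trp53inp1, -0.69 to 0.087 for Sesn2, -1.80 to 0.033 for Zmat3 and -2.37 to 0.27 for Phlda3. The replicate block ended the Eda2r call (adjusted p = 0.0963). Deviations of same-numbered libraries correlated from -0.71 to 0.12 across genes in the 6 comparisons. The values from -0.71 to -0.51 were those of wild-type organoids against hepatocytes, where library 2 differs from the rest under both labels. With 3 libraries a group this check cannot exclude a pairing. Depth has no counterpart on arrays, and Eda2r in Yap-off libraries lay near background. Centring moved the median difference of all genes from -0.03 to -0.13 for wild-type organoids against hepatocytes.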

Other observations

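Yap1 itself was at 7.45, 7.40 and 7.28 in the Yap-on and at 7.35, 7.21 and 6.88 in the Yap-off libraries. The log2 difference was 0.23 (SE 0.56, limma adjusted p = 0.825). Whether its probes detect the transgene was not examined.

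The 3 Yap-on libraries varied less than the 3 Yap-off libraries for 5 of the 7 members, and 72.1% of all genes had a smaller SD in the Yap-on group. For Phlda3 the SD was 0.05 with Yap on and 0.49 with Yap off, for Zmat3 0.05 and 0.46, and for Sesn2 0.08 and 0.44. The third Yap-off library was the lowest of its group for 6 of the 7 members, Trp53inp1 being the exception, and for 28% of all genes.

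Mdm4, a partner of Mdm2 that also restrains p53, was at 7.49, 7.46 and 7.35 with Yap on and at 7.23, 6.84 and 7.09 with Yap off. The groups did not overlap, and the log2 difference of 0.38 did not pass (SE 0.13, limma adjusted p = 0.0964), though it did without the doubtful libraries (adjusted p = 0.0494). Cdkn2a, whose locus encodes the Mdm2 inhibitor ARF, was at 5.74, 5.71 and 5.37 with Yap on and at 5.17, 6.02 and 5.15 with Yap off, with overlap. Both genes were singled out after their values were seen.

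Tnfrsf10b, the mouse TRAIL death receptor, was also singled out after its values were seen. It was at 7.31 and 7.24 under the labels hepatocyte 1 and 3 and at 7.34 in wild-type organoid 2, against 2.93, 2.84 and 3.72 in hepatocyte 2 and wild-type organoid 1 and 3. The Yap-off libraries were at 6.53 to 7.20 and the Yap-on libraries at 7.49 to 7.94. The 3 lowest libraries were those with the highest macrophage marker sums, and the part of those cells was not tested.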
